A study of Homo sapiens with 16 samples.

Results

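The regions described here carried a BMAL1 peak in exactly 1 of 12 BMAL1 libraries. They were found by merging peaks of the 12 lists that overlapped by 1 bp or more, and 11911 of the 20968 merged regions, or 56.8%, had a peak in 1 list alone. These are called single-library regions, and the remaining 9057, each found in at least 2 lists, are called shared. The members were chosen by whether each library's list held a peak there, so their number, score, width and spacing are given as a description with no test.

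The libraries were made by immunoprecipitating BMAL1 with the chromatin it bound and sequencing the DNA, in U2OS-CHRONO and in U2OS, both human osteosarcoma cells from bone, the second labelled as wild type. The labels do not say how the U2OS-CHRONO line was made or whether it is 1 clone. Cells of both lines were given 200 nM dexamethasone and collected every 4 h, with 1 library per line at each of the time labels 0, 4, 8, 12, 16 and 20 h, the first of them placed 4 h ahead of the low point of a luciferase rhythm driven by the BMAL1 promoter. A further list came from a Myc immunoprecipitation in U2OS-CHRONO, which the series describes as Myc-CHRONO. This list is called the Myc list below after its label, and is not read as a map of the MYC transcription factor. No dexamethasone treatment or time is given for it. Lists held 337 to 9391 BMAL1 peaks. The read depth behind them is not known, so a longer list cannot be told apart from deeper sequencing or better enrichment. A library here is a time point and not a replicate of another.

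BMAL1 pairs with CLOCK and binds E-box elements, of which CACGTG is the canonical form, to switch on clock genes such as the PER and CRY genes. PER and CRY proteins then repress the pair, which closes the loop and gives binding that rises and falls over the day. CIART encodes CHRONO, another repressor that acts on this pair. A peak list holds only what passed the caller's threshold in that library, so a region missing from a list is not shown to be unbound there.

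Promoter sequences of genes touched by these regions are shown first, because the sequence was not used to choose them. They come from RefSeq (GRCh38.p14, the assembly of the files' hg38) and run 5′ to 3′ from 250 bases before to 50 bases after the annotated start, with CACGTG in capitals. Both genes of the first pair had the highest score percentile among single-library promoter regions without the motif. NXNL2 encodes a thioredoxin-like protein, and its window lies at chr9:88534928-88535227 on the plus strand. CNOT11 encodes a subunit of the CCR4-NOT deadenylase complex, and its window lies at chr2:101252636-101252935 on the plus strand. The next 3 had the highest score percentile among those with the motif. DEPDC1 (chr1:68497033-68497332, minus strand) and MYBL2 (chr20:43666864-43667163, plus strand) are cell division genes, the second encoding a transcription factor of the MYB family. ZNF789, a zinc finger gene, has its window at chr7:99472640-99472939 on the plus strand. TEF, a clock-controlled PAR bZIP transcription factor gene, stands for the shared class. Its window (chr22:41381692-41381991, plus strand) lies in the highest-scoring region of all 12 lists whose promoter window holds the motif.
NXNL2: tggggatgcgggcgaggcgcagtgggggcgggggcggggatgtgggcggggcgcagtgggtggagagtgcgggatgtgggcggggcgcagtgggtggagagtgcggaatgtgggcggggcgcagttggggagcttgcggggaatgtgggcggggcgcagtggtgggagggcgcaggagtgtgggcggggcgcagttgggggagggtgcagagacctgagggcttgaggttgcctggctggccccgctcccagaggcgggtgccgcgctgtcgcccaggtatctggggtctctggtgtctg
CNOT11: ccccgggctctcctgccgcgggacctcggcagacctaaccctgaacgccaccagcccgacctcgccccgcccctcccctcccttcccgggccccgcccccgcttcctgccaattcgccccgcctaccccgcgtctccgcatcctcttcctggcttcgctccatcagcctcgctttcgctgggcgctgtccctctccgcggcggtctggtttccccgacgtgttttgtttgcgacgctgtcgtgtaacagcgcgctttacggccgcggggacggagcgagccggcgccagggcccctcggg
DEPDC1: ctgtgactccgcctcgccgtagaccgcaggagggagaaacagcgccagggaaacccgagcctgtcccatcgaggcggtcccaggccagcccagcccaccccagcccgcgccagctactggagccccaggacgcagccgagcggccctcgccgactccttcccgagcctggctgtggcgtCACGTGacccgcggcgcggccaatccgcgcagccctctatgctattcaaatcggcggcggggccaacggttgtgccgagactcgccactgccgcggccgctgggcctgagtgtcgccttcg
MYBL2: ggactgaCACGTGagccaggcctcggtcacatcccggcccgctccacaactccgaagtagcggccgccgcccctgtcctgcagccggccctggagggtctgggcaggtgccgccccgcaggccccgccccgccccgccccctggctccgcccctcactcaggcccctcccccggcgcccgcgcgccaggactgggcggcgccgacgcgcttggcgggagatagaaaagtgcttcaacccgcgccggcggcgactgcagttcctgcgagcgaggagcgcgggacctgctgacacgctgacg
ZNF789: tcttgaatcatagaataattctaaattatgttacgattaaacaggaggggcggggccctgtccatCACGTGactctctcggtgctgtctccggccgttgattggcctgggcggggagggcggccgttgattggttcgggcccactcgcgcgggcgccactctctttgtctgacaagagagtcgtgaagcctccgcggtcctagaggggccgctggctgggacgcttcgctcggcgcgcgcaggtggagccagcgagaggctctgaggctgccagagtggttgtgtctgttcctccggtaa
TEF: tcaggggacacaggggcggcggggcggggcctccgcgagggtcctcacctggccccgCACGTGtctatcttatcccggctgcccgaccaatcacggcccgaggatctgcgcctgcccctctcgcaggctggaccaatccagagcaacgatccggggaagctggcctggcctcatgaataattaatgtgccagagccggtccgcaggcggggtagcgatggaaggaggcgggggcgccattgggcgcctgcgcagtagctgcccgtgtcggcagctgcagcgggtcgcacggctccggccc

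The NXNL2, CNOT11, DEPDC1 and MYBL2 regions were all called at 16 h in U2OS-CHRONO, with scores of 141.01, 134.64, 111.35 and 106.72. The ZNF789 region was called at 0 h in U2OS-CHRONO with a score of 104.24. In each of the 3 motif-bearing windows from single-library regions the motif lay inside the called region, and in none of these 5 did the region touch a Myc peak. The score is the authors' value from the peak list, with a definition that is not stated. It is used here to describe, rank and filter peaks, and scores of different lists may not lie on 1 scale.

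Single-library regions made up a modest part of each list. In U2OS-CHRONO their number was 838 at 0 h, 1745 at 4 h, 516 at 8 h, 759 at 12 h, 2353 at 16 h and 1279 at 20 h. In U2OS it was 520 at 0 h, 989 at 4 h, 120 at 8 h, 558 at 12 h, 646 at 16 h and 1588 at 20 h. The lowest number in both lines was at 8 h, whereas the highest was at 16 h in U2OS-CHRONO and at 20 h in U2OS. As a share of the list, single-library regions ranged over 14.9% to 25.1% in U2OS-CHRONO and 15.3% to 35.6% in U2OS. The 2 shortest lists, U2OS at 8 h (337 peaks) and at 12 h (1808 peaks), held the highest shares, 35.6% and 30.9%. The 0 h libraries held the lowest in both lines. In all, U2OS-CHRONO gave 7490 single-library regions, 62.9% of them, out of 36464 peaks, and U2OS gave 4421 out of 19635 peaks.

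**Figure D1:**
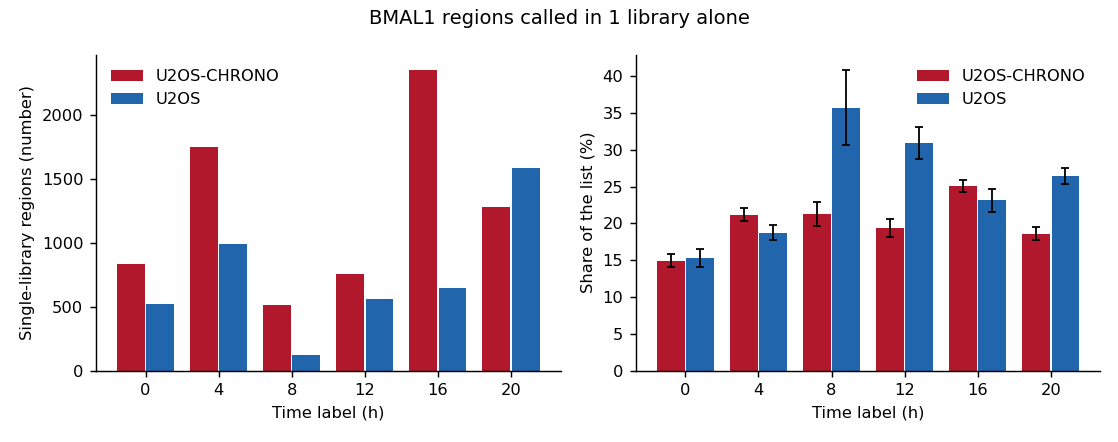
Number of single-library BMAL1 regions (left) and their share of the library's list in percent (right), by time label in hours, for U2OS-CHRONO and U2OS. Bars are 1 library each and error bars on the right are Wilson 95% intervals, which cover counting error only. The number was lowest at 8 h in both lines, and the share was highest, 35.6%, in U2OS at 8 h.

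Single-library regions were short and low in their lists. By library their median score spanned 53.54 to 57.87, just above the lowest score of 50 in any BMAL1 list, against 71.06 to 94.44 for shared peaks. The median width was 280 bp for single-library regions and 380 bp for shared peaks. Of the single-library regions, 222 of the 11911, or 1.86%, reached a score of 100. The median of their rank within the list, as a percentile from the bottom, was 21.4. It was 32.7 for peaks of regions in exactly 2 lists and 95.2 for peaks of regions in all 12, so the position in the list rose with the number of lists. Low rank was not universal: the highest single-library region of U2OS at 20 h scored 194.82 and ranked 613 of 6012.

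**Figure D2:**
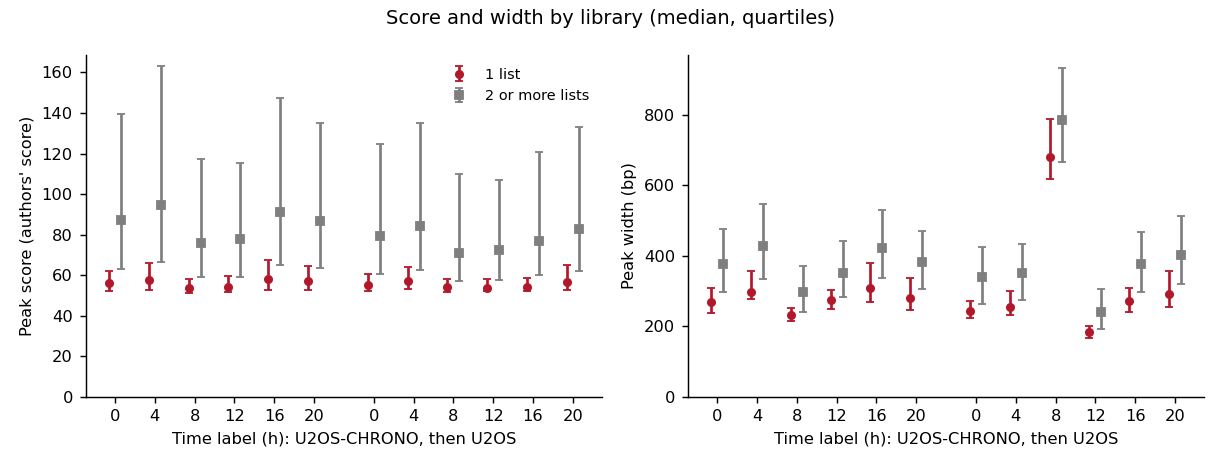
Median peak score (left, authors' score) and median peak width in bp (right) of single-library peaks and of peaks in 2 or more lists, for each library by time label in hours, U2OS-CHRONO first and U2OS after it. Error bars run from the lower to the upper quartile over peaks. Single-library medians lay below shared medians in each library, and widths in U2OS at 8 h stood apart, at 680.5 bp for single-library peaks.

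The regions next outside the rule, those in exactly 2 lists, numbered 2700. Of these 1902, or 70.4%, had both lists from 1 line, 1529 from U2OS-CHRONO and 373 from U2OS. Lists of U2OS-CHRONO held 36464 peaks against 19635 in U2OS, and how far the 70.4% follows from list length was not tested. The commonest pair was 4 h with 16 h in U2OS-CHRONO, with 502 regions, and the 2 longest lists of the series make up that pair. Regions in exactly 2 lists had a median peak width of 317 bp, between the value of single-library regions and that of all shared peaks.

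The first question was whether regions called once lie at genes as often as shared ones. In the lists as deposited they did so less often in every library. A gene end is taken as 1 kb either side of either end of a protein-coding gene, and over all merged regions 19.5% touched one. Among single-library regions 1777 of 11911 did, or 14.9%, against 25.4% of shared regions. Within libraries the share averaged 12.6% ± 8.09 for single-library peaks and 27.3% ± 3.87 for shared peaks (SD, n = 12 libraries). The mean difference was -14.7 ± 9.26 percentage points, negative in 12 of 12 libraries, with an adjusted p of 0.000814 (two-sided exact sign-flip permutation test, Benjamini-Hochberg over 5 tests; its raw p of 0.000488 is the smallest that 12 pairs allow). Against peaks of regions in exactly 2 lists the difference was -7.61 points (adjusted p = 0.00488 by the same exact test). Shared regions recur between libraries, so the 12 differences are not independent and these p-values are too small to that extent. With peaks under a score of 100 left out before merging, the difference was -10.2 points and missed the threshold (adjusted p = 0.0854, exact test). That filter left 1 single-library peak in U2OS-CHRONO at 8 h and 2 each in U2OS at 8 and 12 h. None of them touched a gene end. Shared peaks of those libraries had 24.2%, 43.1% and 32.0% in that order, so the mean leaned on these few peaks. Under that filter U2OS-CHRONO turned at 0 h, with 48.1% of 104 single-library and 32.7% of 1859 shared peaks. At 12 h it also turned, with 26.7% of 15 single-library and 23.5% of 1006 shared peaks. With both lines cut to the shorter list at each time, U2OS-CHRONO turned at 0 h, with 37.9% of single-library and 32.0% of shared peaks. It also turned at 16 h, with 29.2% and 28.5% in the same order. Lists still differed in length between times under this setting.

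The difference in gene-end share varied widely with time. At 0, 4, 8, 12, 16 and 20 h in U2OS-CHRONO, 27.1%, 19.7%, 4.46%, 5.27%, 19.8% and 15.3% of single-library peaks touched a gene end. At the same times in U2OS the shares were 20.0%, 16.1%, 3.33%, 2.69%, 8.67% and 9.01%. Both lines were low at 8 and 12 h and highest at 0 h. For scale, a window of 280 bp placed at each position of the chromosomes would touch a gene end at 2.71% of positions, a share that depends on the width used. The Wilson 95% intervals in U2OS, 1.304% to 8.26% at 8 h and 1.64% to 4.39% at 12 h, included it, and those in U2OS-CHRONO, 2.99% to 6.60% at 8 h and 3.89% to 7.10% at 12 h, lay above it. Peaks of U2OS at 8 h were wider than this window, with a median of 680.5 bp. Shared peaks of the same 4 libraries did not fall in this way, with 24.99% and 22.8% at 8 and 12 h in U2OS-CHRONO and 36.4% and 29.6% in U2OS. Lists were short at those times in both lines (2429 and 3919 peaks in U2OS-CHRONO, 337 and 1808 in U2OS). The U2OS lists of 0 h (3397 peaks) and 16 h (2794 peaks) were also shorter than that of U2OS-CHRONO at 12 h. Their single-library shares were 20.0% and 8.67%. How far list length or time accounts for the low shares was not tested. Without these 4 libraries the difference between single-library and shared peaks was -9.80 points over 8 libraries (adjusted p = 0.013 by the exact sign-flip test, its raw p the smallest 8 pairs allow).

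**Figure D3:**
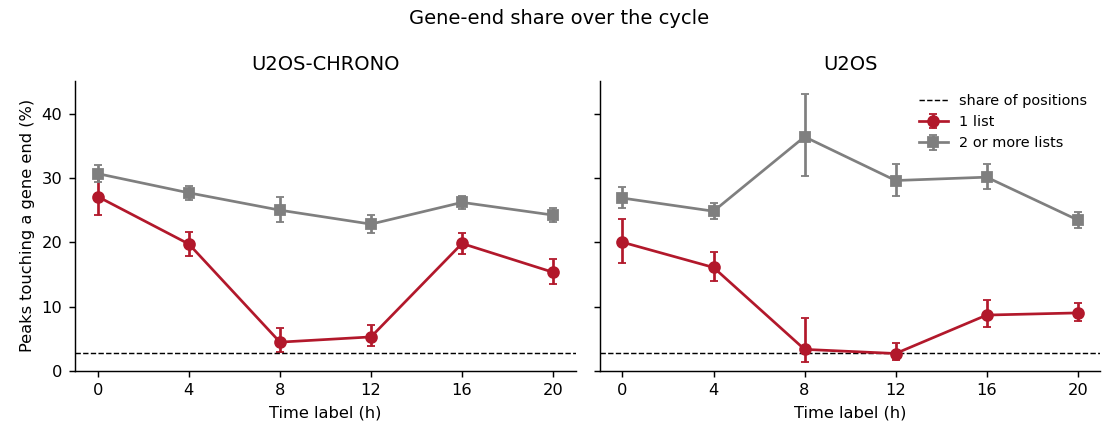
Share of BMAL1 peaks touching a gene end, in percent, by time label in hours, for peaks in 1 list and in 2 or more lists, in U2OS-CHRONO (left) and U2OS (right). Points are 1 library each, error bars are Wilson 95% intervals for counting error, and the dashed line is the 2.71% of positions at which a 280 bp window touches a gene end. Single-library shares were 4.46% and 5.27% at 8 and 12 h in U2OS-CHRONO and 3.33% and 2.69% in U2OS, where the interval included the line in U2OS alone, and shared peaks stayed at 22.8% or more.

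Single-library regions of U2OS-CHRONO lay at gene ends more often than those of U2OS. The share averaged 15.3% ± 8.91 in U2OS-CHRONO and 9.96% ± 6.89 in U2OS (SD, n = 6 times each), a difference of 5.31 ± 3.63 points. U2OS-CHRONO was higher at 6 of 6 times, by 1.12 to 11.1 points (adjusted p = 0.0391, exact sign-flip test over pairs of the same time; the raw p of 0.0313 is the smallest 6 pairs allow). U2OS-CHRONO also had the longer list at each time, and with lists cut to equal length the difference was 11.7 points over the 5 times that could be compared (adjusted p = 0.0781, exact sign-flip test, where 5 pairs cannot pass the threshold). Without pairing by time the same difference had an adjusted p of 0.341 (exact permutation of line labels).

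Where strand was known, the gene ends touched were mostly 5′ ends. Among single-library regions 1341, or 11.3%, lay within 1 kb of a 5′ end, and 164, or 1.38%, within 1 kb of a 3′ end alone. Among shared regions the shares were 19.9% and 1.44%, so the classes stood apart in 5′ ends while their shares at 3′ ends were close. In all 51.6% of single-library regions and 57.8% of shared regions touched the body of a protein-coding gene.

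Overlap with the Myc list was rare. A Myc peak was touched by 185 single-library regions, or 1.55%, and by 1141 shared regions, or 12.6%, where 6.32% of all merged regions touched one. Within libraries the share averaged 1.35% ± 1.11 for single-library peaks and 23.7% ± 12.2 for shared peaks (SD, n = 12), a mean difference of -22.4 ± 12.8 points. It was negative in 12 of 12 libraries (adjusted p = 0.000814, exact sign-flip test, the raw p again the smallest possible). Against regions in exactly 2 lists it shrank to -2.96 points (adjusted p = 0.00488, exact test). No single-library region of the 8 h libraries touched a Myc peak, 0 of 516 in U2OS-CHRONO and 0 of 120 in U2OS, counts that allow shares of up to 0.581% and 2.50%. The highest share was at 0 h in both lines, 3.22% in U2OS-CHRONO and 3.08% in U2OS.

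The Myc list was made in U2OS-CHRONO, yet its overlap with single-library regions was not detectably greater in that line. The share averaged 1.46% ± 1.15 in U2OS-CHRONO and 1.24% ± 1.17 in U2OS (SD, n = 6 times each). The difference was 0.22 ± 0.67 points, with U2OS-CHRONO higher at 3 times, lower at 2 and equal at 8 h, where both were 0 (adjusted p = 0.563, exact sign-flip test). Single differences ran between -0.35 and 1.48 points. Both alternatives that shorten the lists gave larger differences that also missed the threshold, 3.76 points with lists of equal length (adjusted p = 0.125 over 5 times) and 4.01 points with scores of at least 100 (adjusted p = 0.375, exact tests). Counts were small under the score filter. At 12 h it set 20% of 15 single-library peaks in U2OS-CHRONO beside 0% of 2 in U2OS. At 8 h it left 1 and 2 peaks, none touching a Myc peak. Over all scores, with the U2OS 16 h library left out before merging, the mean difference was -0.02 points. With the U2OS-CHRONO 16 h library left out it was 0.10.

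Single-library regions that did touch a Myc peak were more often at genes: 49.2% of the 185 touched a gene end, against 14.4% of the 11726 that did not. Seen from the Myc list, 184 of its 2487 peaks touched single-library regions alone, 1199 touched shared regions and 1104 touched none. Median Myc scores were 60.39 for the 184 and 65.64 for the 1199. The highest Myc score of a single-library region, 148.08 (rank 76 of 2487), belonged to a U2OS-CHRONO 4 h region at chr5:43066946-43067182. That region scored 53.22 for BMAL1, rank 7384 of 8240, and lay 23698 bp from ANXA2R, the nearest protein-coding gene. The Myc peak with the next score, 147.45, lay 59685 bp from ACOT11. At promoters, a U2OS 12 h region 26 bp from KANSL3, a gene of the NSL acetyltransferase complex, met a Myc peak of 141.45. A U2OS-CHRONO 20 h region 153 bp from STAT3, a transcription factor of cytokine signalling, met one of 106.27, while its own BMAL1 score of 50.02 ranked 6868 of 6873. The other 6 of the 10 highest had Myc scores of 102.65 to 119.59 and were nearest to STAU1, BTC, C8orf33, PPP1R37, GPC6 and TIMM9. In their own BMAL1 lists these 10 regions had score percentiles, counted from the bottom, of 0.0436 at STAT3 to 46.6 at GPC6.

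**Figure D4:**
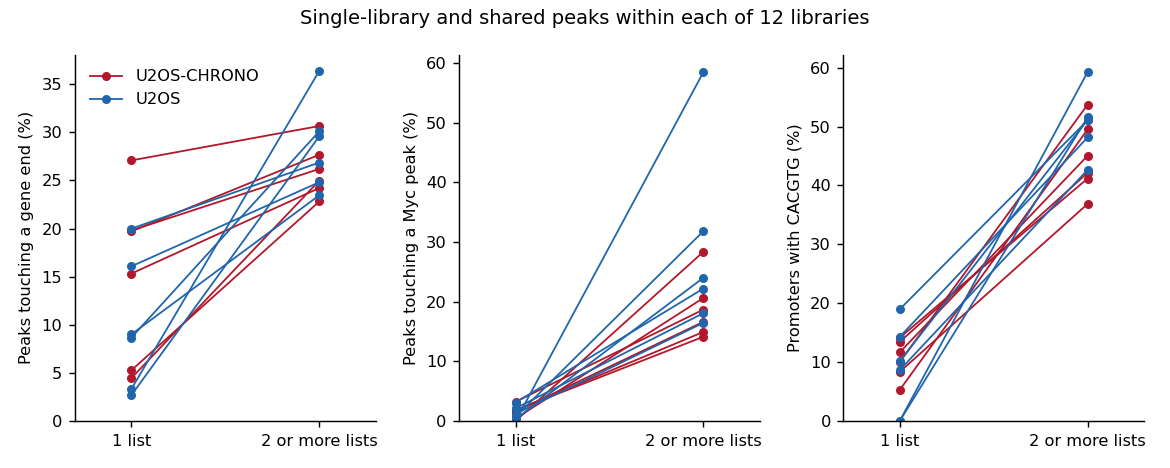
Within-library comparison of single-library peaks (1 list) with shared peaks (2 or more lists): percent touching a gene end (left), percent touching a Myc peak (middle) and percent of promoter genes touched whose window holds CACGTG (right). Each line is 1 of 12 libraries, coloured by line, with no error bars. All 12 lines rise from the single-library to the shared side in each panel.

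Promoters touched by single-library regions held CACGTG at a share near that of all genes and below that of shared regions. The motif CACGTG reads the same on both strands and was searched with its exact letters in the 300-base windows, which were at hand for 15842 genes. Of these genes 10.9% held it in a window. Single-library regions touched windows of 1133 genes and 11.9% held it there, against 35.5% of the 1770 genes touched by shared regions. Within libraries the share averaged 9.57% ± 5.68 for single-library peaks and 47.7% ± 6.29 for shared peaks (SD, n = 12), a difference of -38.1 ± 10.01 points that was negative in 12 of 12 libraries (adjusted p = 0.000814, exact sign-flip test). Against regions in exactly 2 lists, however, the difference was -3.34 points and missed the threshold (adjusted p = 0.208 over 11 libraries, exact test). There the single-library share was higher in U2OS-CHRONO at 8, 12 and 20 h and in U2OS at 20 h. It was 0 in both classes in U2OS at 12 h and lower in the other libraries compared. With scores of at least 100 the difference was -27.1 points (adjusted p = 0.0195 over 9 libraries, exact test). Under that filter single-library peaks touched 3 promoter genes in U2OS-CHRONO at 12 h and 1 in U2OS at 16 h. None of these held the motif, against 57.5% and 58.6% for shared peaks. U2OS at 4 h alone turned, with 62.1% of 29 single-library and 55.5% of 348 shared promoter genes. With no score filter, the genes behind a library's single-library share numbered 1 in U2OS at 8 h and 6 in U2OS at 12 h. None of these held the motif. The largest number was 300 in U2OS-CHRONO at 16 h.

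Window by window, 1265 promoter windows were touched by single-library regions alone, and 10.8% of them held CACGTG. The share was 32.0% among 2093 windows touched by a shared region and 5.54% among 18840 windows with no BMAL1 region, with 8.34% over all windows. Base composition moved with these classes: mean GC content was 63.9% ± 8.53 with single-library regions alone, 65.5% ± 8.15 with shared regions and 60.2% ± 12.6 with no region (SD over windows). Among windows of 60% to 70% GC alone the motif shares were 8.91%, 32.1% and 6.74%, in the same order. Where a window held the motif, it lay inside the region in 118 of 137 cases for single-library regions and in 661 of 670 for shared ones. A match is only a run of letters in this window, and regions away from promoters were not searched.

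The shares were higher in regions of more lists, though not at each step. A region is the whole span of its merged peaks, here and in the region shares above. That span can widen with more lists. The TEF region of all 12 lists covered chr22:41379876-41383730, against a median of 280 bp for single-library regions. Whether span accounts for the shares was not tested. The Myc share was 1.55% in regions of 1 list, 4.93% in those of 2, 14.7% in those of 6 and 70.7% in those of all 12. The CACGTG share was 11.9%, 17.0%, 38.1% and 55.0% at the same steps. The gene-end share was 14.9% in regions of 1 list and 24.1% in those of 2, stood at 24.0% to 25.9% over 3 to 8 lists and was 42.5% in regions of all 12. In all 3 measures single-library regions had the lowest share of the 12 classes.

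**Figure D5:**
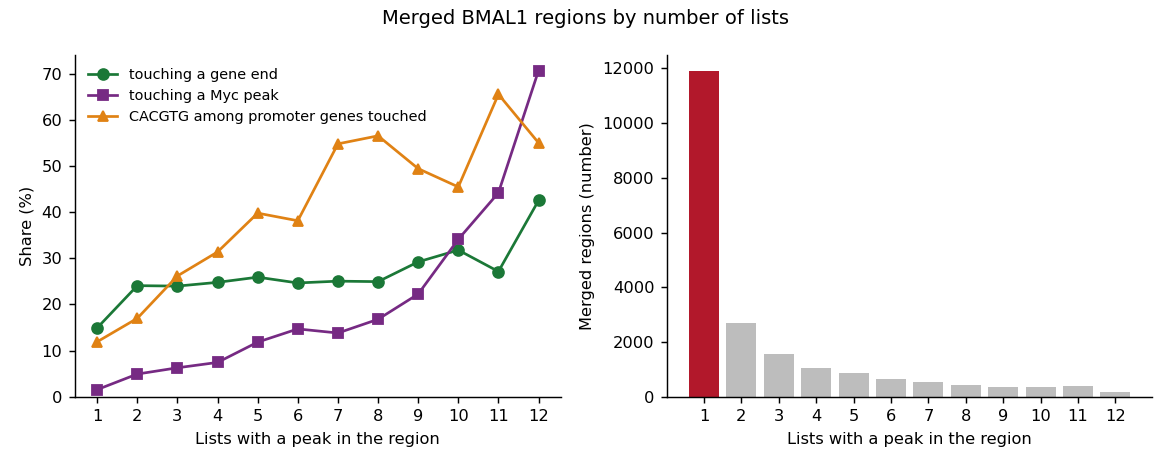
Merged BMAL1 regions by the number of lists with a peak in them, from 1 to 12: percent touching a gene end or a Myc peak and percent of promoter genes touched whose window holds CACGTG (left), and the number of regions (right, single-library regions in red). Each point is the share over all regions of a class, with no error bars. Shares are taken on the merged span, which can be wider with more lists. The Myc share went up in most steps, to 70.7% in regions of all 12 lists, and the gene-end share stayed near 25% between 2 and 8 lists.

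In space, single-library regions lay at widely varied distances from the next merged region. The median gap to the next merged region was 26.9 kb, 24.2% had another within 5 kb, and 19.5% had none within 100 kb. Gaps were longer at 8 and 12 h, with medians of 55.2 and 44.8 kb in U2OS-CHRONO and 49.7 and 55.2 kb in U2OS. No gap expected from the density of regions was computed. A small part lay close to the most shared sites. A single-library region lay within 1 kb of 60 of the 167 regions in all 12 lists, or 35.9%, against 8.07% of regions in exactly 2 lists. In all, 227 single-library regions, or 1.91%, lay within 1 kb of a region in 10 or more lists. By chromosome, single-library regions made up between 44.7% of merged regions on chromosome 19 and 62.2% on chromosome 5.

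Core clock genes were among the places where such regions gathered. Of 20 core clock genes, 18 had a single-library region in the gene or within 5 kb, where 27.7% of all protein-coding genes did. The 42 regions scored 50.53 to 101.46 with a median of 59.60, 21 came from each line, and none touched a Myc peak. Of the 42, 12 lay within 1 kb of a region in 10 or more lists, or 28.6%, against 1.91% of all single-library regions. Gene length was not taken into account, and RORA, which spans chr15:60488284-61229302, held 5 of the 42. RORB and NFIL3 had none.

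At gene ends the core clock count was 4 of 20, where 9.84% of all protein-coding genes had one. BMAL1 itself, which encodes the factor, was touched at a gene end by a U2OS-CHRONO 4 h region at chr11:13277598-13277902 with a score of 54.49. NPAS2, a CLOCK paralogue, had a U2OS 20 h region 4 bp from the gene, at chr2:100818360-100818718, with a score of 69.06. PER1, a repressor gene of the loop, had a U2OS 4 h region of score 53.47 at 884 bp from the gene. Its partner CRY1 had a U2OS 20 h region of score 52.2 that lay 32 bp from a region in all 12 lists. The BMAL1 and NPAS2 ends had no such strong neighbour: no shared region lay at a BMAL1 end, and the widest-shared region at an NPAS2 end was in 2 lists.

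At some genes with strong sites there were several single-library calls, and at others 1. DBP, a PAR bZIP activator gene driven directly by BMAL1, had 4, all in U2OS-CHRONO at 0 or 4 h, with scores of 51.11 to 78.95. Of these, 1 lay 1 bp from a region of all 12 lists and 27 bp from another such region. TEF had 6 from 5 libraries, at 495 to 13729 bp from its own region of 12 lists. CRY2, a cryptochrome repressor gene, had 4, of which 3 came from U2OS at 4 h, and the highest scored 101.46. NR1D1, which encodes the REV-ERB alpha repressor, had 3, at 49, 533 and 2617 bp from the highest-scoring of its regions of 12 lists. The last of these lay 145 bp from another region of 12 lists. PER2 and PER3 each had 1 in U2OS, at 1394 and 2744 bp from a region of 12 lists. HLF, BHLHE40, BHLHE41 and CIART had 1 each, and NR1D2 had 2.

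CLOCK differed from these genes in having no shared region in or within 5 kb of it. Its 2 calls were single-library ones, at chr4:55458032-55458435 in U2OS-CHRONO at 4 h with a score of 54.25 and at chr4:55521713-55521935 in U2OS at 12 h with a score of 56.33. RORA, a nuclear receptor that activates the BMAL1 gene, had 5 calls from 4 libraries, with scores of 50.53 to 84.65, spread over its length and 70464 bp or more from its own widest-shared region, which was in 4 lists. NPAS2 had 5 in all, with scores of 50.56 to 95.08.

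The other lists of genes had single-library regions at gene ends as follows, each beside 9.84% of all protein-coding genes. Clock output genes had 4 of 18, MYC target and ribosome biogenesis genes 8 of 25, lysosome and autophagy genes 5 of 22 and cell cycle genes 7 of 24. Cytosolic ribosomal protein genes had 6 of 22, glucocorticoid-induced genes 3 of 22, clock kinases and cofactors 2 of 15, osteoblast genes 2 of 16 and genes of other cell types 3 of 28. These counts were not tested. Most lists stood above the share of all genes, but shared regions also lay at the ends of 12.8% of all genes and of 14 of the 20 core clock genes, 14 of the 25 MYC targets and 9 of the 18 output genes.

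Growth-related genes were among those touched. BUB1B, a mitotic checkpoint kinase gene, had a U2OS-CHRONO 16 h region of score 80.31, and AURKB, the Aurora B kinase gene, a U2OS-CHRONO 4 h region of 80.85. E2F1, a transcription factor gene of S-phase entry, had a U2OS-CHRONO 4 h region of 60.49. None of the 6 ribosomal protein genes had a shared region at an end: RPS24 had a score of 75.81 in U2OS at 0 h and RPL4 had 66.23 in U2OS-CHRONO at 4 h, and the RPL4 region touched a Myc peak. EIF4A1, a translation initiation helicase gene, had 66.57 in U2OS at 4 h, UTP20, a small subunit processome gene, 65.98 in U2OS-CHRONO at 16 h and POLR1B, a subunit of RNA polymerase I, 62.65 in U2OS-CHRONO at 4 h. The EIF4A1 region overlapped CD68, which lies beside it, and cannot be assigned to either gene.

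Among the steroid and metabolic lists, FKBP5, a glucocorticoid receptor chaperone gene, had a U2OS-CHRONO 0 h region of score 87.86, and MT1X, a metallothionein gene, had 55.39 in U2OS at 4 h. The third gene of that list, PER1, is described above with the core clock genes. ATP6V1A, a subunit of the lysosomal proton pump, had 66.41 in U2OS-CHRONO at 16 h, in a region that overlapped NAA50. GLA, a lysosomal galactosidase gene, and TFEB, which controls lysosomal genes, had 56.54 and 52.95, both in U2OS-CHRONO at 20 h, and the first of these regions overlapped HNRNPH2. Of the output genes, TSPAN4 had 68.43 in U2OS-CHRONO at 0 h, POR, the reductase that serves cytochrome P450 enzymes, 57.91 in U2OS-CHRONO at 16 h and KLF15, a zinc finger factor of metabolism, 53.27 in U2OS-CHRONO at 20 h. GSK3B, a kinase that acts on clock proteins, had 67.6 in U2OS at 4 h, and CSNK1E, a PER kinase, 52.4 in U2OS at 0 h.

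Genes not thought to be active in bone cells were touched too. TNNT2 of cardiac muscle had a score of 61.04 in U2OS at 4 h, DES of muscle 61.92 in U2OS-CHRONO at 4 h and HBB of red cells 55.99 in U2OS at 20 h. Together they were 3 of 28 such genes, or 10.7%, beside the 9.84% of all genes. Of the osteoblast genes, which mark the labelled tissue of origin, COL1A1 had 62.84 in U2OS at 16 h and SPP1 had 58.54 in U2OS at 0 h, 2 of 16 in all.

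Repeated single-library calls at 1 gene were uncommon. Of the 1972 genes with such a region at an end, 1874 had it from 1 library, 96 from 2 and 2 from 3. GNG8, a G protein gamma subunit gene, had 3, all in U2OS-CHRONO, with scores of 72.47 at 16 h, 64.32 at 4 h and 78.02 at 20 h. PMAIP1, which encodes the pro-apoptotic protein NOXA, had 61.27 and 75.44 in U2OS-CHRONO at 4 and 16 h, and 59.93 in U2OS at 4 h. Neither gene had a shared region within 5 kb, so different libraries put separate peaks there.

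In several of these genes the separate calls were next to each other. At KDM4A, a histone demethylase gene, the U2OS-CHRONO 0 h and 4 h regions, with scores of 81.5 and 103.09, were 18 bp apart. At the neighbouring ends of ZGRF1 and LARP7, which encodes a 7SK RNA-binding protein, the U2OS-CHRONO 20 h and 0 h regions, with 92.22 and 112.46, were 82 bp apart. At CTSC, the cathepsin C gene, the U2OS-CHRONO and U2OS regions of 20 h, with 119.38 and 60.73, were 53 bp apart. At VEGFA, an angiogenic growth factor gene, the U2OS-CHRONO 4 h region of 91.04 and the U2OS 16 h region of 72.78 were 61 bp apart. Each such pair counted as 2 single-library regions because the edges did not meet. With gaps of up to 500 bp joined, 10986 regions had a peak in 1 list, against 11911 without joining.

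PSMA5, a proteasome subunit gene, had its 2 calls at opposite ends, 26676 bp apart, with scores of 111.53 in U2OS-CHRONO at 16 h and 89.3 in U2OS at 20 h. SOCS3, an inhibitor of cytokine signalling, had 85.22 in U2OS-CHRONO at 0 h and 75.46 in U2OS at 20 h. EPM2A, the laforin gene, had 116.94 and 60.28 in U2OS-CHRONO at 16 and 4 h, on both sides of a region in 11 lists.

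The highest single-library region of each list mostly lay away from gene ends, as did single-library regions in general, of which 14.9% touched one. In U2OS-CHRONO the 0 h region at ATL3, an endoplasmic reticulum GTPase gene, scored 137.4 and touched both a gene end and a Myc peak. The 12 h region, of score 105.02, touched ends of both MRPL50 and ZNF189. Those of 4, 8 and 16 h lay inside KCNT1, CERKL and EFHD2, 7463 bp or more from a gene end, with scores of 162.08, 105.6 and 149.92. The 20 h region, of score 139.18, lay 91069 bp from SOD2. In U2OS the 0 h region, of score 112.76, lay 5117 bp from FBXO34, the 4 h region, of score 153.06, lay in DPEP1 and touched a Myc peak, and the 20 h region, of score 194.82, lay 34993 bp from MXI1, a MYC antagonist gene.

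The other 3 U2OS libraries had their highest single-library region far from any protein-coding gene. That of 8 h was placed on chromosome Y, at chrY:11293252-11294211, and scored 101.38 at 1407019 bp from the nearest one. Those of 12 and 16 h lay on chromosome 20, at chr20:29942155-29942249 and chr20:29155659-29155771, with widths of 95 and 113 bp, scores of 110.27 and 97.88, and the nearest gene at 871177 and 1657655 bp. All 3 ranked in the upper part of their lists, 66 of 337, 300 of 1808 and 742 of 2794. Whether the reads behind these 3 calls were placed correctly was not tested. A high rank here is therefore not read as BMAL1 binding at these places.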

How the data were processed

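Each of 13 chromatin immunoprecipitation libraries had 1 deposited peak list, 12 of BMAL1 and 1 of Myc; the 3 inputs were not analysed here. Named in the submitters' processing notes are hg38, HOMER 4.10.3, MACS 1.4.2 and bedtools, with no roles; the aligner, control and read depth were not given in the sources used here. The deposited score in the fifth column was made by the authors with no stated definition, and was used to describe, rank or filter peaks. Lists were taken as called per library.

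Peaks sharing 1 bp were merged; bedtools 2.31.1 gave the same 20968 regions. Genes (20033 protein-coding) and promoter windows came from RefSeq GRCh38.p14. Single-library and shared peaks were compared within libraries, and the lines within times, by two-sided exact sign-flip permutation tests with Benjamini-Hochberg adjustment over 5 tests. Intervals are Wilson 95% and, with the limit of 3 counts for a count of 0, cover counting error only. Members, gene lists, tests and alternatives were chosen with earlier results of these data known. Genes were named by rule: core clock genes with a single-library region in or within 5 kb, the highest-scoring one of each list, up to 3 genes of each other list by score percentile, the 10 genes with most libraries and the 10 highest Myc scores. A few genes that the rule names are not reported here. The alternatives tried were a score of at least or under 100, equal list sizes, joined gaps, chromosomes 1 to 22 and X, the central 300 bp, regions of exactly 2 lists, a 5 kb window, a stricter Myc overlap or score, another motif, no pairing and each library left out. For equal list sizes, both lines were cut to the same length at each time, and lengths still differed between times. Python 3.11.15, NumPy 2.4.6, pandas 2.3.3 and SciPy 1.17.1 were used.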

Additional observations from a re-analysis of the deposited data

Results flagged for a closer look

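The median width of single-library regions in U2OS at 8 h was 680.5 bp, apart from the other 5 U2OS libraries, which lay between 184 and 291 bp. Shared peaks of that library were wide too, with a median of 787 bp, and its list was the shortest, with 337 peaks. Of 18 sets of 6 libraries examined in this way it was the only one set apart, and chance sets apart about 1 in 20.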

How the results depend on the processing

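Under the alternatives run, the deficits of single-library peaks kept their sign. The gene-end difference missed the threshold with scores of at least 100, at -10.2 points, and otherwise ran between -16.8 and -7.61; the Myc difference ran between -33.4 and -2.96. The CACGTG difference missed it against regions of exactly 2 lists, at -3.34 points, and otherwise ran between -40.7 and -27.1. The gene-end difference between lines stayed positive but missed the threshold with scores of at least 100 (9.27 points), with equal list sizes (11.7), with no pairing by time (5.31), without 8 and 12 h (7.05, chosen after seeing the data, where 4 pairs cannot reach the threshold) and with each library left out in turn (4.05 to 6.33, where 5 pairs cannot reach the threshold). The Myc difference between lines ran between -0.0173 and 0.540 points with a library left out, turning sign without U2OS at 16 h, and was 3.76 with equal list sizes and 4.01 with scores of at least 100; the cause was not tested. The number of single-library regions was 1806 with scores of at least 100 and 7860 with list sizes equal between the lines at each time. Lists hold fewer peaks under these settings. With scores of at least 100, U2OS-CHRONO at 8 h kept 1 single-library peak, and U2OS at 8 and 12 h kept 2 each. All tests but that with no pairing paired values within a library or by time label; beyond these pairs, no paired analysis was possible because the labels give no such numbers. The unknown depth limits every count: a region missed in the other 11 lists may lie just under their threshold.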
